A study of Homo sapiens with 6 samples.

Results

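The 6 genes described here encode short noncoding RNAs made by RNA polymerase III: RN7SL1, RN7SL2 and RN7SL3 for 7SL RNA, RN7SK for 7SK RNA, RMRP for the RNA of RNase MRP and RPPH1 for the RNA of RNase P. They were picked by name from a table of 58938 rows, and where a symbol had several rows the one with the highest mean over all 6 libraries was taken, which applied to RMRP alone. The set was proposed with the values of RN7SL2 already known, so its difference between groups is given as a description of these libraries. Of the 6 genes, 2 (RN7SL2 and RN7SL3) had reads in at least 1 library, and these same 2 reached the mean of 1 FPKM needed for the test. The other 4 were listed at 0 in all 6 libraries.

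The libraries came from HCT116, an established human colorectal cancer cell line, and were made from RNA labelled as total RNA. In the MST3 group (3 libraries) the cells had been given a plasmid that overexpresses MST3, the serine/threonine kinase that STK24 encodes, and in the vector group (3 libraries, genotype labelled WT) a vector. Per the labels' protocols lipofection was done at 60% density, with fresh medium at 6 hours and RNA taken at 30 hours. The labels do not say whether replicates were separate cultures, so a p-value here sets the groups against library-to-library spread that may be technical. Whether RNA was selected or depleted before sequencing is not given in the sources used here.

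7SL RNA is the scaffold of the signal recognition particle, which binds signal peptides as they leave the ribosome and takes the ribosome to the endoplasmic reticulum. 7SK RNA holds the elongation kinase P-TEFb in an inactive complex with HEXIM1, and RNase P and RNase MRP are RNA-protein enzymes that trim the leader of precursor tRNAs and cut the precursor of ribosomal RNA. All are abundant, structured RNAs that do not carry the poly(A) tail of an mRNA, and the 7SL sequence is the ancestor of the Alu repeats.

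The 3 7SL genes lie on chromosome 14 of GRCh38, RN7SL1 at chr14:49586580-49586878 on the plus strand, RN7SL2 at chr14:49862550-49862849 and RN7SL3 at chr14:49853616-49853914, both on the minus strand. Their GENCODE 29 transcripts were compared because the bases that tell them apart decide to which gene a read can be assigned. RN7SL1 and RN7SL2 were identical at 295 of 299 aligned bases (98.7%), with the longest unbroken run at 205 bases. RN7SL3 differed from RN7SL1 at 7 of 299 bases and from RN7SL2 at 11. Of the 201 windows of 100 bases in RN7SL2, 165 were found at another locus among GENCODE 29 transcripts, against 24 of 200 in RN7SL3 and 149 of 200 in RN7SL1. The windows of RN7SK were found elsewhere in 119 of 229 cases, at 4 genes named as 7SK pseudogenes. No window of RMRP or RPPH1 was found at another locus. How reads that match several loci were counted is not given in the sources used here, so the RN7SL2 value need not belong to that gene alone. For RN7SL3 this concerns fewer windows, since 176 of its 200 were found nowhere else. As RN7SL1 was listed at 0 throughout, the RN7SL2 and RN7SL3 values need not add up to the whole 7SL family.

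RN7SL2 (ENSG00000274012, 300 bases) had 462, 23.2 and 23.5 FPKM in MST3 replicates 1 to 3, against 1.71, 5.06 and 7.64 FPKM in vector replicates 1 to 3. FPKM is fragments per kilobase of gene, scaled per library by the authors. Every MST3 library was above every vector library, and MST3 replicate 1 was far above the other 5. The whole reads recovered behind these values were 2213, 121 and 121 in the MST3 libraries and 9, 26 and 40 in the vector libraries. Ranked by FPKM within its own library, RN7SL2 stood at place 60, 1748 and 1823 in the MST3 libraries and at place 11262, 7071 and 5417 in the vector libraries.

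The mean of RN7SL2 was 170 ± 254 FPKM in MST3 libraries and 4.8 ± 2.97 FPKM in vector libraries (SD, n = 3 per group), a ratio of 35.4. In bulk RNA, a higher level in every cell and a higher level in part of the cells cannot be told apart. Without MST3 replicate 1 the MST3 mean was 23.4 FPKM and the ratio to vector 4.87. On the log2(FPKM + 1) scale, which understates the change of low genes, the difference was 3.64 (SE 1.12, 95% interval 1.02 to 6.26). It was the largest difference among the 13036 genes tested by limma, ahead of STK24 at 1.97, and ranked 147 by p. The unadjusted p was 0.013 by limma and the adjusted p = 0.719 over all tested genes, so RN7SL2 did not pass. The exact permutation test of its 6 values (two-sided) gave p = 0.1, the lower limit of this test with 3 values a group. As RN7SL2 was proposed with these values known, its interval and p-values describe these libraries and are no independent support for a difference.

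**Figure D1:**
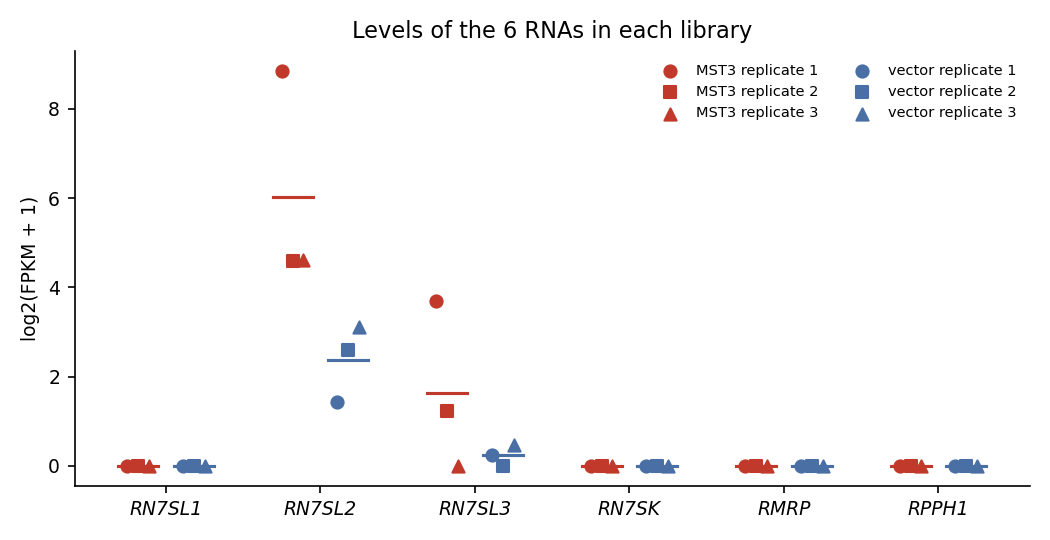
Level of each of the 6 RNAs as log2(FPKM + 1), with 1 point per library, MST3 libraries in red and vector libraries in blue, marker shape for the replicate number and a bar for the mean of 3. RN7SL2 lies between 23.2 and 462 FPKM in MST3 libraries and between 1.71 and 7.64 FPKM in vector libraries, and 4 of the 6 RNAs lie at 0 throughout.

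RN7SL3 (ENSG00000278771, 299 bases) had 12, 1.35 and 0 FPKM in MST3 replicates 1 to 3, against 0.19, 0 and 0.383 FPKM in the vector libraries. These values rest on 57, 7 and 0 reads in the MST3 libraries and on 1, 0 and 2 reads in the vector libraries. The groups overlapped, since MST3 replicate 3 and vector replicate 2 were both at 0. As for RN7SL2, MST3 replicate 1 was the highest of the 6. RN7SL3 reached the mean of 1 FPKM only through MST3 replicate 1, so its log2 difference of 1.40 is a description with no test. At 0 to 2 reads per vector library the size of a difference was not measurable.

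RN7SL2, the only 1 of the 6 RNAs given a test here, was not called by limma at an adjusted p under 0.05. RN7SL3 is given with no test, and the others were at 0 throughout and not tested. Over all 13036 tested genes 1 gene, STK24, passed as higher (0.00767%) and 0 as lower. The unadjusted limma p of RN7SL2 was under 0.05, where 3.51% of tested genes were called higher and 1.86% lower. Its values were known when it was proposed, so this call is a description and no support. By limma voom on the recovered reads RN7SL2 was not called (unadjusted p = 0.055, adjusted p = 0.714). The groups of RN7SL2 did not overlap, as for 5.19% of tested genes in the same direction.

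**Figure D2:**
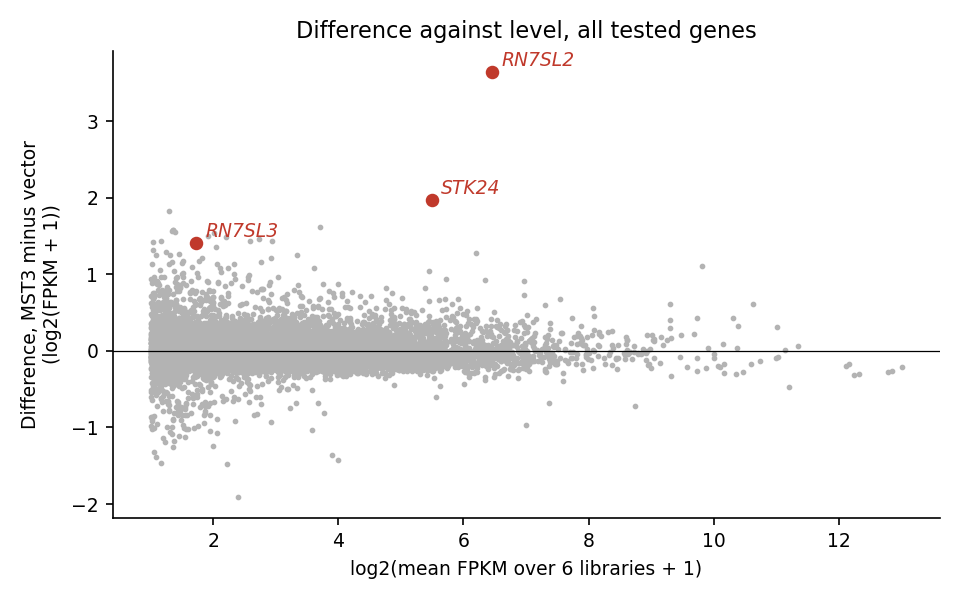
Difference of each tested gene (MST3 minus vector, log2(FPKM + 1)) against its level, log2 of the mean FPKM over 6 libraries plus 1, with 1 point per gene. RN7SL2 stands at 3.64 and STK24 at 1.97, and RN7SL3 at 1.40 lies at the left edge among genes with low levels.

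STK24, the overexpressed gene, checked the labels: it had 63.7, 72.2 and 76 FPKM in MST3 libraries against 17.1, 17.4 and 17.4 FPKM in vector libraries. MST3 replicate 1, in which RN7SL2 was highest, was thus the lowest of its group for STK24. The same library had reads on 27442 genes, against 25125 to 25378 in the other MST3 libraries and 25099 to 25501 in the vector libraries. Rows under 400 bases, the 6 RNAs left out, held 73443 reads there, against 47206 and 34535 in MST3 replicates 2 and 3 and 39136 to 44518 in the vector libraries. Total reads were 15289213 in that library and 17178700 to 17708029 in the others. The part of these library differences in the 7SL values was not tested. Among cell markers, EPCAM, KRT8, KRT18 and KRT19 had means of 87.8 to 957 FPKM, while LGALS4 and VIL1 of the colon list were at 0.0223 and 0.0113 FPKM, and of 10 markers of fibroblasts, blood and endothelium COL1A1 alone exceeded 1 FPKM.

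RN7SK, RMRP, RPPH1 and RN7SL1 were at 0 in every library of both groups, which sets these 4 apart from RN7SL2 and RN7SL3. Each of the 4 lies under another row of the table on its own strand. RN7SL1 is covered over its whole length by AL139099.4, RN7SK (chr6:52995621-52995948) by RF00100, and RPPH1 (chr14:20343075-20343407) by AL355075.4. RMRP (chr9:35657751-35658018) has a second row of the same symbol that covers 264 of its 268 bases (98.5%). All 4 covering rows were at 0 in the 6 libraries too. The exons of RN7SL2 and RN7SL3 share no base with any other row, although the lincRNA AL627171.2 spans RN7SL2.

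The same held across the table. Of 1139 rows wholly covered by exons of another row on the same strand, 1059 were at 0 in all libraries (93%), and the highest mean among the other 80 was 0.456 FPKM. Of 735 rows wholly covered from the opposite strand alone, 735 were at 0. Among rows of under 400 bases, the size of these RNAs, 685 of 688 rows covered on the same strand and 352 of 352 covered on the opposite strand were at 0, against 8453 of 12521 rows that share no exon base (67.5%). Rows whose bases all lie in exons of another row thus held almost no reads in this table, on either strand. The zeros of RN7SL1, RN7SK, RMRP and RPPH1 do not show whether these RNAs were in the cells, and the table allows no comparison of them between MST3 and vector.

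**Figure D3:**
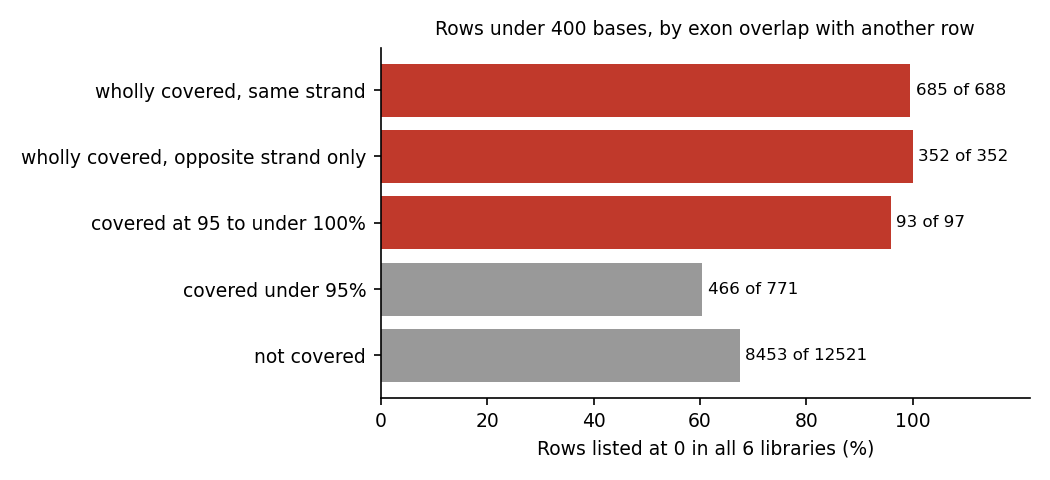
Share of rows under 400 bases listed at 0 in all 6 libraries, in percent, by how much of the row is covered by exons of another row. Red bars are the classes that hold RN7SL1, RN7SK, RMRP and RPPH1 or are covered likewise (352 of 352, 685 of 688 and 93 of 97 at 0), and grey bars the classes with less or no cover, the last of which holds RN7SL2 and RN7SL3 (8453 of 12521 at 0).

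None of the tested genes beside these loci passed the test. RPS29, a ribosomal protein gene that spans RN7SL1 on the opposite strand without sharing its bases, had 29.4, 12.8 and 8.8 FPKM in MST3 libraries against 9.37, 10.2 and 10.3 FPKM in vector libraries. MST3 replicates 1 and 2 were above all vector libraries and MST3 replicate 3 below them, so the groups overlapped (limma adjusted p = 0.719). PARP2, which starts 175 bases from RPPH1 and encodes a DNA repair enzyme, had 10.1, 9.05 and 8.19 FPKM in MST3 libraries against 10.7, 11 and 10.6 FPKM in vector libraries. Its groups did not overlap, with lower values in MST3 libraries, as for 6.7% of tested genes in that direction. NEMF, whose end lies 413 bases from RN7SL3, had 3.34, 3.21 and 2.42 FPKM in MST3 libraries against 2.81, 2.92 and 2.92 FPKM in vector libraries. CCDC107 lies 272 bases from RMRP, and its groups overlapped with 2.96 to 3.44 FPKM in MST3 libraries and 2.34 to 3.14 FPKM in vector libraries. ARHGEF39, 857 bases from RMRP, stood at 3.2 to 3.4 FPKM in MST3 libraries and 3.23 to 3.37 FPKM in vector libraries. GSTA4, near RN7SK, and the noncoding AL627171.2, AL627171.1 and AL355075.1 stayed below 1 FPKM in every library.

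The genome also holds many pseudogenes of 7SL, of which the table lists 677, 246 of them with reads. RN7SL5P, on chromosome 9, shares the longest run of any pseudogene with a 7SL gene, 209 bases in common with RN7SL1. RN7SL5P had 32, 4 and 0 reads in MST3 replicates 1 to 3 and 1, 0 and 1 reads in the vector libraries, or 6.25, 0.717 and 0 FPKM in MST3 libraries against 0.177, 0 and 0.178 FPKM in vector libraries. The groups overlapped, and MST3 replicate 1 was the highest, the same order of MST3 libraries as for RN7SL3. RN7SL4P, with a run of 192 bases shared with RN7SL2, had 5, 0 and 0 reads in MST3 libraries and 3, 1 and 0 in vector libraries. These were the only 2 of the 677 that shared a run of at least 100 bases. The other 675 summed to 92.2, 74 and 71.7 FPKM in MST3 libraries and to 62.5, 58.1 and 66.2 FPKM in vector libraries. All 3 MST3 sums were above the vector sums, by far less than for RN7SL2. The highest of them, RN7SL381P, had 5.68, 4.25 and 4.31 FPKM in MST3 libraries against 4.2, 5.29 and 2.88 FPKM in vector libraries, with overlap. RN7SL608P had 2.7, 5.57 and 5.44 FPKM in MST3 libraries against 3.26, 2.3 and 1.85 FPKM in vector libraries, again with overlap.

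**Figure D4:**
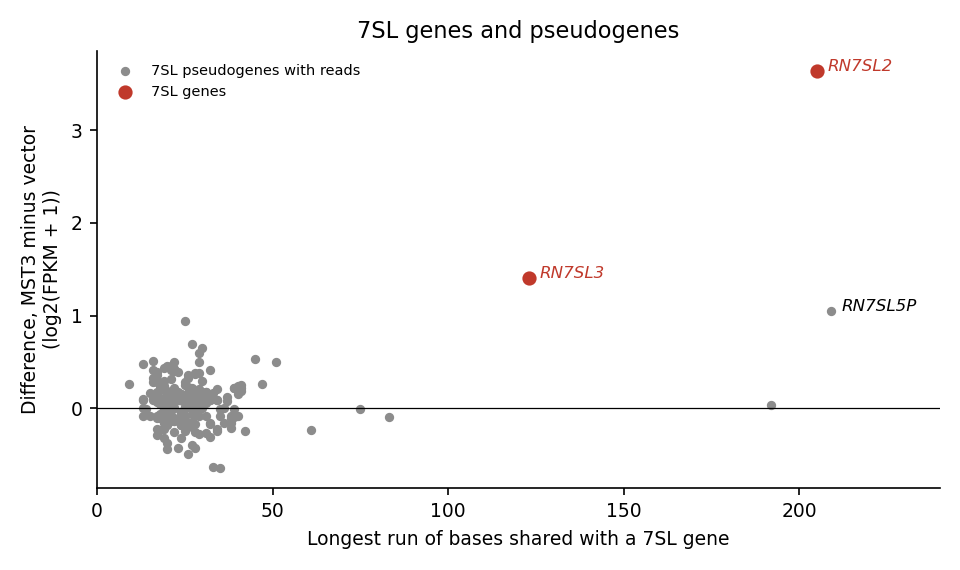
Difference of the 7SL genes and of the 246 pseudogenes with reads (MST3 minus vector, log2(FPKM + 1)) against the longest run of bases shared with a 7SL gene, taken against RN7SL1 for the 2 red genes and against RN7SL1 or RN7SL2 for the pseudogenes. RN7SL2 and RN7SL3 lie at 3.64 and 1.40, RN7SL5P with a run of 209 bases lies at 1.06, and nearly all other pseudogenes share short runs and lie around 0.

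The 293 pseudogenes of 7SK, of which 72 had reads, summed to 32.5, 30.1 and 24.9 FPKM in MST3 libraries and to 27.1, 27.7 and 31.5 FPKM in vector libraries, and the groups overlapped. RN7SKP173 had 9.16, 6.21 and 6.3 FPKM in MST3 libraries against 6.14, 5.19 and 7.46 FPKM in vector libraries. RN7SKP16 had 2.31, 3.47 and 2.34 FPKM in MST3 libraries against 2.09, 3.71 and 4.98 FPKM in vector libraries. Reads on 7SK pseudogenes thus gave no separation of the groups.

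Among other RNAs of RNA polymerase III, a list of 14 named genes in the table (Y RNAs, vault RNAs, U6 copies, U6atac and BC200) was nearly without reads. Of the 14, 10 were at 0 in all libraries, and 9 of these 10 share no exon base with another row. Since the counting of reads that match several loci is not given, these zeros need not show a low level. BCYRN1, the Alu-derived BC200 RNA, had 3, 7 and 1 reads in MST3 libraries and 0 in each vector library. RNU6-8 had 4, 0 and 0 reads in MST3 libraries and 0 in each vector library, and RNU6-2 had 1 read in all. With so few reads no difference was measurable, and none of the 14 could be tested. The many further U6 and Y RNA rows, counted after the values were seen, did hold reads. Of 1272 other rows named as U6, 411 had reads, and they summed to 314, 344 and 263 FPKM in MST3 replicates 1 to 3, against 297, 261 and 271 FPKM in vector libraries. Of 758 rows named RF00019, the Rfam family of Y RNAs, 283 had reads, and they summed to 319, 241 and 210 FPKM in MST3 replicates 1 to 3, against 222, 212 and 240.5 FPKM in vector libraries. Both sums overlapped between groups. Of these U6 and RF00019 rows 77 and 57 reached the filter. From them 3 rows, picked for large differences after the values were seen, were higher in every MST3 library than in any vector library. Over all tested genes 5.19% were apart in this direction and 6.7% in the other. The share among U6 and RF00019 rows was not counted. RNU6V had 1.17, 5.38 and 2.18 FPKM in MST3 libraries and 0 in each vector library. In 1 row named RF00019 the values were 3.33, 2.04 and 3.1 FPKM in MST3 libraries against 1.01, 0 and 0 FPKM in vector libraries. Another row named RF00019 had 0.615, 4.51 and 1.14 FPKM in MST3 libraries and 0 in each vector library. These 3 rows passed the filter through the MST3 group and are given with no test. Small nuclear, snoRNA and guide RNAs that RNA polymerase II makes also held few reads, with 16 of 31 at 0. Of these 16, 5 share no exon base with another row, so the other zeros need not show a low level. Summed reads of the list were 32, 11 and 14 in MST3 libraries against 21, 21 and 35 in vector libraries. Those sums overlapped between groups. SCARNA13, a Cajal body RNA, had 1.6, 0.419 and 0.849 FPKM in MST3 libraries against 1.45, 1.27 and 1.88 FPKM in vector libraries, with overlap. RNU5F-1 averaged 1.35 FPKM in MST3 libraries and 0.815 FPKM in vector libraries, also with overlap. SCARNA13 reached the filter through the vector group and RNU5F-1 through the MST3 group, so both are given with no test. SCARNA6 had 3, 4 and 1 reads in MST3 libraries and 1, 7 and 7 in vector libraries.

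The mRNAs for the protein partners of these RNAs were mostly well covered, and none of those tested passed limma in either direction. SRP19 and RPP21 were under 1 FPKM and not tested. Of the 8 signal recognition particle and receptor genes 7 were tested, 1 higher and 6 lower, with a median log2 difference of -0.03 beside -0.01 over all tested genes. SRP9 and SRP14, which bind the Alu end of 7SL, averaged 82.9 ± 9.54 and 76 ± 11.9 FPKM in MST3 libraries, against 84.1 ± 2.13 and 71.3 ± 7.95 FPKM in vector libraries (SD, n = 3). SRP54, which reads the signal peptide, averaged 16.7 FPKM in MST3 libraries and 16.8 FPKM in vector libraries. The smallest p was that of SRP72, with 22.6, 28.3 and 21.1 FPKM in MST3 libraries against 25.5, 28.6 and 25.8 FPKM in vector libraries (limma adjusted p = 0.729). SRPRA, a receptor subunit, had 20.9, 26.2 and 23.9 FPKM in MST3 libraries against 24.3, 25.2 and 27.3 FPKM in vector libraries. SRP68 had 25.8, 29.5 and 30.5 FPKM in MST3 libraries against 29.8, 31.5 and 30 FPKM in vector libraries. The groups overlapped for every tested gene of this list, and the differences ran from -0.15 to 0.09.

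Among 8 genes of the 7SK particle and P-TEFb, 5 were higher and 3 lower, with a median of 0.10, and the groups did not overlap for 2 higher and 1 lower (background 5.19% and 6.7%). HEXIM1, which inhibits P-TEFb when bound to 7SK, had 26.5, 20 and 20.4 FPKM in MST3 libraries against 18.3, 15.7 and 20 FPKM in vector libraries. The log2 difference was 0.29 (95% interval -0.03 to 0.61, limma adjusted p = 0.719), and the lowest MST3 value, 20.02 FPKM, was next to the highest vector value, 19.99 FPKM. CDK9, the kinase of P-TEFb, had 27.4, 25.6 and 30.6 FPKM in MST3 libraries against 25.4, 25.1 and 25.4 FPKM in vector libraries. MEPCE, which caps 7SK, had 11.5, 10.9 and 14.6 FPKM in MST3 libraries against 10.8, 9.01 and 11 FPKM in vector libraries, with overlap. CCNT1, a cyclin partner of CDK9, had 15, 19 and 16.5 FPKM in MST3 libraries against 18.3, 20.4 and 18.8 FPKM in vector libraries, also with overlap. CCNT2, the other cyclin, was the 1 with lower, separate values, at 3.11, 3.31 and 2.72 FPKM in MST3 libraries against 3.46, 3.55 and 3.42 FPKM in vector libraries (limma adjusted p = 0.719).

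The RNase P and RNase MRP proteins had the highest median of the 5 lists. Of 11 genes 10 were tested, 7 higher and 3 lower, with a median log2 difference of 0.15, and the groups did not overlap for 3 higher genes, beside 5.19% of all tested genes. POP7, a subunit of both enzymes, had 38.4, 24.4 and 36.6 FPKM in MST3 libraries against 22.7, 18.8 and 21.6 FPKM in vector libraries. The log2 difference was 0.61 (95% interval 0.20 to 1.02) with an unadjusted p of 0.00978 and an adjusted p = 0.719 by limma. POP5 had 9.81, 9.93 and 9.53 FPKM in MST3 libraries against 7.86, 8.32 and 8.68 FPKM in vector libraries, a log2 difference of 0.21 (adjusted p = 0.719). RPP25 had 2.73, 2.7 and 3.41 FPKM in MST3 libraries against 2.39, 2.14 and 1.99 FPKM in vector libraries, a log2 difference of 0.31 (adjusted p = 0.719). All 3 were higher in each MST3 library than in any vector library but did not pass over all genes. POP1, the largest shared subunit, averaged 8.03 FPKM in MST3 libraries and 8.08 FPKM in vector libraries.

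RNA polymerase III itself showed no called change. Of 18 subunit genes 11 were higher and 7 lower (median 0.09), and the groups did not overlap for 2 higher and 1 lower (5.19% and 6.7% of all tested genes). POLR2L, shared by the nuclear RNA polymerases, had 82.7, 37.6 and 40.4 FPKM in MST3 libraries against 32.6, 26.2 and 36.5 FPKM in vector libraries, again highest in MST3 replicate 1 (limma adjusted p = 0.719). POLR3A, the largest subunit, had 7.09, 8.91 and 8.96 FPKM in MST3 libraries against 9.85, 9.77 and 9.72 FPKM in vector libraries, lower in all 3 (adjusted p = 0.719 by limma). POLR2F, a shared subunit, had 5.39, 3.41 and 3.55 FPKM in MST3 libraries against 2.74, 2.6 and 3.74 FPKM in vector libraries, with overlap. Of 20 initiation factors and regulators 8 were higher and 12 lower (median -0.04), with 1 lower gene whose groups did not overlap (6.7% of all tested genes). That gene was GTF3C4, of the TFIIIC factor that recognises internal promoters, with 9.14, 10.7 and 10.7 FPKM in MST3 libraries against 11.3, 12 and 11.6 FPKM in vector libraries (adjusted p = 0.719). MAF1, the repressor of RNA polymerase III, had 56.8, 46.1 and 65.4 FPKM in MST3 libraries against 49.8, 42.1 and 49.6 FPKM in vector libraries, with overlap. GTF3C2 had 9.48, 11 and 10.5 FPKM in MST3 libraries against 11.9, 10.6 and 12 FPKM in vector libraries, with overlap as well.

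**Figure D5:**
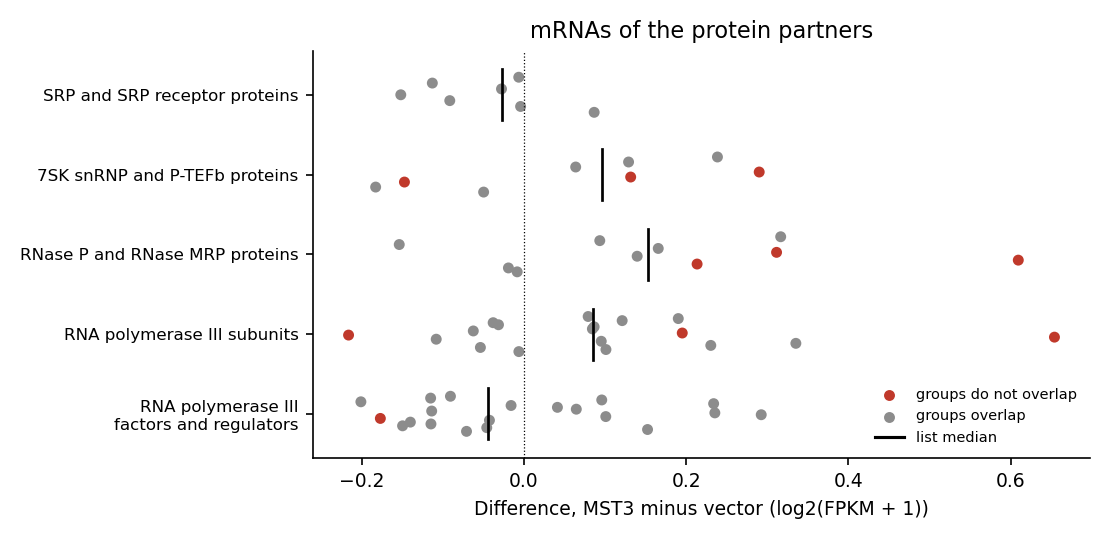
Log2(FPKM + 1) differences (MST3 minus vector) of the tested mRNAs in 5 lists of protein partners, with 1 point per gene, red where the 3 MST3 and 3 vector values do not overlap, and a black bar for the list median. The medians lie between -0.04 and 0.15, and the largest difference is that of POLR2L at 0.65, against 3.64 for RN7SL2.

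The genes whose pattern over the 6 libraries was most like that of the members were found by Pearson's r with the mean of the members' centred log2(FPKM + 1) values, which is the pattern of RN7SL2 and RN7SL3 since the others are flat. The 5 highest were MANF (r = 0.997), PPIB (0.992), TRAF3IP1 (0.991), NDUFA6 (0.991) and CDADC1 (0.991), over 6 libraries. All 5, like RN7SL2 and RN7SL3, were highest in MST3 replicate 1, which follows from choosing them by likeness to this pattern. MANF had 31.1, 23.4 and 21.5 FPKM in MST3 libraries against 18.5, 19.4 and 20.1 FPKM in vector libraries. An r of at least 0.95 was reached by 87 tested genes (0.667%), as a description with 6 points each.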

How the data were processed

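RNA-seq of 6 HCT116 libraries, 3 MST3 and 3 vector, was used as deposited: 1 table of FPKM per gene that the authors made, with HISAT2 named in the submitters' processing notes. For the counting program, its strand setting and the FPKM scaling, the choice is not given in the sources used here. Of 58938 rows, 58735 carried GENCODE 29 identifiers with identical coordinates and exon lengths, which places them on GRCh38. FPKM times length came out as a whole multiple of 1 read (tolerance 0.01) in 100% of values of every library, giving 15289213 to 17708029 reads per library. Intervals cover the spread between libraries, and at few reads counting error limits precision.

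Groups were compared with limma 3.58.1 (R 4.3.3, intensity trend) on log2(FPKM + 1) for the 13036 genes whose mean reached 1 FPKM, with Benjamini-Hochberg adjustment over all of them and a threshold of 0.05. Single genes were also given a two-sided exact permutation test. Exon overlap and shared windows came from GENCODE 29 exons and transcripts. The base sequences are not reported here.

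The members and lists were chosen with earlier results of these data known. Named were the members, STK24, rows within 1000 bases, the 3 smallest p of each partner list, the 3 highest small RNAs of each small RNA list, the 2 highest pseudogenes per family and the 5 genes most alike. RNU6V, RF00019, RN7SL4P, RN7SL5P, SRP9, SRP14, SRP54, CDK9, CCNT2, POP1 and the cell markers were named after their values were seen. Alternatives were other pseudocounts, filters, scalings and variance models, limma voom on recovered reads, a replicate block, summed 7SL rows and leaving out each library.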

Additional observations from a re-analysis of the deposited data

How the results depend on the processing

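RN7SL2 had the same direction in all 21 alternatives and passed an adjusted p of 0.05 by limma in 0 of them. Since every MST3 library was above every vector library, leaving out a library or changing the pseudocount or filter could not reverse that direction. The shared direction is therefore no separate support. Leaving out 1 library at a time gave log2 differences of 2.23 to 4.35 (limma adjusted p 0.217 to 0.999), with 2.23 without MST3 replicate 1, and the other 15 gave 3.63 to 4.30 (limma adjusted p 0.482 to 1). RN7SL3 ranged from 1.28 to 2.22 without 1 library and from 1.40 to 2.56 otherwise. It fell under the filter without MST3 replicate 1 and at a mean of at least 5 FPKM, so it has no value there. The count of genes called was 1 in every alternative except without a filter, where limma called 24, of which 23 had a mean under 1 FPKM (at most 0.064). Unadjusted calls numbered 701, against 303 to 2555 without 1 library, the highest without MST3 replicate 2 and the lowest without vector replicate 2, and 871 by limma voom. Without a filter they numbered 1518, at a mean of at least 0.1 FPKM 1190 and at a mean of at least 5 FPKM 394. Deviations of same-numbered libraries correlated at 0.0158, 0.226 and 0.035, and those of differently numbered libraries at -0.148 to 0.122. These values do not settle whether the numbers mark a pairing, and the main fit used none. With a replicate block, 1 gene was called, 1338 had an unadjusted p under 0.05, and RN7SL2 differed by 3.64 (limma adjusted p = 0.482). Median-of-ratios factors were 1 in every library, so the values were already level by that measure. That alternative repeated the main fit and is no separate check. Summing the RMRP rows gave no value, since both were at 0.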
